A study of Homo sapiens with 22 samples.

Results

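A set of 458 chromatin sites in AN3CA cells, an established human endometrial carcinoma line, carried the BAF complex with an ARID1A protein mutated in its ARID domain but not with the truncation named delIDR1. BAF (SWI/SNF) remodellers use the energy of ATP to move or evict nucleosomes, and ARID1A is the large subunit of the canonical form, with an ARID domain that binds DNA and long disordered regions around it. SMARCA4 is the ATPase of the complex, SMARCC1 is a core scaffold subunit, and H3K27ac is the histone acetylation found at active promoters and enhancers. Many sites bound by canonical BAF are enhancers, and ARID1A is often lost in endometrial carcinoma.

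The sites were chosen from peak lists of CUT&Tag, which tethers a transposase through an antibody so that chromatin near the target is cut out and sequenced. The cells expressed a truncated ARID1A (delIDR1), ARID1A with a mutated ARID domain (DBDmut), a further truncation named CBR, a hybrid with a disordered region named for DDX4 (DDX4), wild-type ARID1A (WT), or the empty vector only (Empty). SMARCA4, SMARCC1 and H3K27ac were profiled in every one of these, with 1 library per antibody for each ARID1A form and 2 replicates for Empty, and the DDX4 cells also had 1 library of the HA tag. What all groups share is the AN3CA background, and the labels do not say whether the 2 Empty replicates came from separate cultures, nor how many clones or cultures stand behind a construct. No construct other than Empty has a replicate, so no difference between constructs has a test here, and each is given as values of single libraries.

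Membership was fixed by overlap of at least 1 bp on chromosomes 1 to 22 of hg19. Of 12720 WT SMARCA4 peaks, 9585 met a WT SMARCC1 peak and 8663 of these also met a WT H3K27ac peak. Of those, 2823 met no SMARCA4, SMARCC1 or H3K27ac peak of either Empty replicate, and they are called new acetylated BAF sites here. Both subunits had a peak in DBDmut at 1072 of the 2823 sites. Of these 1072, both subunits were also called in delIDR1 at 332 (31.0%), 1 subunit alone at 282 (26.3%), and neither at 458 (42.7%). The 458 are 16.2% of the new acetylated sites, and the same DBDmut and delIDR1 pattern was found at 9.58% of all WT SMARCA4 peaks. The opposite pattern, both subunits in delIDR1 and neither in DBDmut, was found at 34 new acetylated sites, or 1.20%. These counts describe the choice of members, and nothing is read from them.

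The 458 sites are set against 2 others of the new acetylated sites. The 332 sites with both subunits in both mutants differ from them in delIDR1 occupancy, and the 946 sites with neither subunit in either mutant differ from them in DBDmut occupancy. The remaining 1053 sites, where 1 subunit alone had a peak in a mutant, were left out of these comparisons. H3K27ac in the mutants and every CBR and DDX4 library played no part in the choice, and the results below rest on them. Intervals are Wilson intervals for a share and Newcombe intervals for a difference of shares, both at 95%, and they allow for counting error alone, since sites that lie close and copies made by PCR are not independent.

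The libraries differed in yield. SMARCA4 lists held 5453 to 14849 peaks, SMARCC1 lists 9489 to 23364 and H3K27ac lists 30991 to 90766, with the highest H3K27ac number in Empty replicate 2. Total fragment numbers are not in the lists, so depth was estimated from the lowest local background in each list. H3K27ac depth was 3.59 fragments per kb in delIDR1, 4.65 in DBDmut, 4.69 in CBR, 6.05 in DDX4, 4.48 in WT, 4.40 in Empty replicate 1 and 14.5 in Empty replicate 2. A stamp opens each peak name, and neither the labels nor the lists say what it stands for. It was shared by delIDR1, DBDmut, CBR, WT and Empty replicate 1 and differed for DDX4 and for Empty replicate 2. A DDX4 value therefore cannot be told apart from its stamp.

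The members were peaks of middle strength in the WT SMARCA4 list and ranked higher in the other WT lists. The fold enrichment and -log10 q given per peak are the authors' own values, and ranks from them place a peak within its own list, where the strongest peak is near 0%. Fold also moves with library depth, so folds of different libraries are not on a common scale. At the 458 sites the WT SMARCA4 peak had a median fold of 7.53, a median width of 182 bp and a median rank at 40.4% of its list. At the 332 sites with both subunits in both mutants the medians were 9.58-fold, 242 bp and 18.2%, and at the 946 sites with neither subunit in either mutant they were 6.50-fold, 145 bp and 57.9%. In the WT SMARCC1 list the median rank was 29.0% at the members, 10.8% at the 332 sites and 48.2% at the 946 sites. In the WT H3K27ac list these ranks were 21.2%, 12.2% and 34.3%. The members thus lay between the other sets in WT strength. Summits fell close together at the members. The DBDmut SMARCA4 summit lay a median of 37 bp from the WT SMARCA4 summit, and the WT SMARCC1 summit 35.5 bp from it.

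The number of fragments piled up at a summit can be recovered from the fold and the p-value. At the members the median pileup was 9 fragments for DBDmut SMARCA4 and 12 for DBDmut SMARCC1, against 10 and 18 in WT. These are not scaled for depth, so they are no measure of weaker binding in DBDmut. Estimated depth was 0.916 fragments per kb in DBDmut and 1.53 in WT for SMARCA4, and 1.62 and 3.28 for SMARCC1. At the 332 sites with both subunits in both mutants the DBDmut medians were 14 and 20. The smallest pileup called in the delIDR1 lists was 4 for both subunits. The delIDR1 SMARCA4 and SMARCC1 lists held 7011 and 10273 peaks, against 14849 and 18427 in DBDmut, while the lowest background was 0.115 in delIDR1 and 0.0944 in DBDmut for SMARCA4, and 0.148 and 0.190 for SMARCC1. DBDmut pileups were also scaled to the delIDR1 background, by 0.782 for SMARCC1 and unchanged for SMARCA4, whose background was higher in delIDR1. Both subunits would then pass the lowest delIDR1 -log10 p at 424 of the 458 members, or 92.6%, and at 99.4% of the 332 sites. These are the DBDmut peaks that the rule required, so most were bound to pass, and no loss by sampling was allowed for. The part of depth in the absent delIDR1 peaks was not tested. The rule found fewer sites in shorter lists, with the WT lists shortened too. When all lists of an antibody were shortened to the same number of peaks, 5453 for SMARCA4, 9489 for SMARCC1 and 30991 for H3K27ac, 88 sites met the rule.

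Just inside the rule, the smallest overlap of a DBDmut subunit peak with a member was 4 bp, at chr14:50692120-50692276 and chr4:154348804-154348907, followed by 6 bp at chr5:76846357-76846448. The members nearest to a delIDR1 subunit peak without touching it were chr1:78002578-78002697 at 11 bp, chr10:79803460-79803573 at 16 bp and chr5:169949407-169949797 at 18 bp. Just outside the rule, delIDR1 subunit peaks overlapped chr9:78066524-78066660 by 4 bp and chr5:33232996-33233264 by 7 bp, and a site on chromosome 8 by 8 bp.

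Individual members show what the rule selects and what it leaves free. The second strongest, chr5:115195073-115195342, had no delIDR1 peak of either subunit. In DBDmut its SMARCA4 peak was 16.0-fold with a pileup of 38 fragments and its SMARCC1 peak 14.3-fold with 47. In WT the SMARCA4 peak was 14.8-fold with 30 fragments and the SMARCC1 peak 12.1-fold with 52. Its H3K27ac peak was 6.94-fold with a pileup of 26 in delIDR1, 9.85-fold with 91 in DBDmut and 11.8-fold with 83 in WT. Acetylation was thus called in delIDR1 where the complex was not, at a lower pileup than in either of the others. CBR and DDX4 had no peak of any antibody there.

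The strongest member by summed WT rank, chr15:31764154-31764347, lacked H3K27ac in delIDR1. Its H3K27ac peak was 5.98-fold with a pileup of 10 fragments in DBDmut and 17.6-fold with 30 in WT. Its SMARCA4 peak was 13.5-fold with 17 fragments in DBDmut and 14.8-fold with 20 in WT, and its SMARCC1 peak 7.97-fold with 9 in DBDmut and 18.9-fold with 44 in WT. CBR and DDX4 again had no peak of any antibody. SMARCA4 was thus near its WT fold in DBDmut, while SMARCC1 and H3K27ac values were lower there than in WT. None of these values is scaled for depth, which for SMARCC1 was 1.62 fragments per kb in DBDmut and 3.28 in WT.

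**Figure D1:**
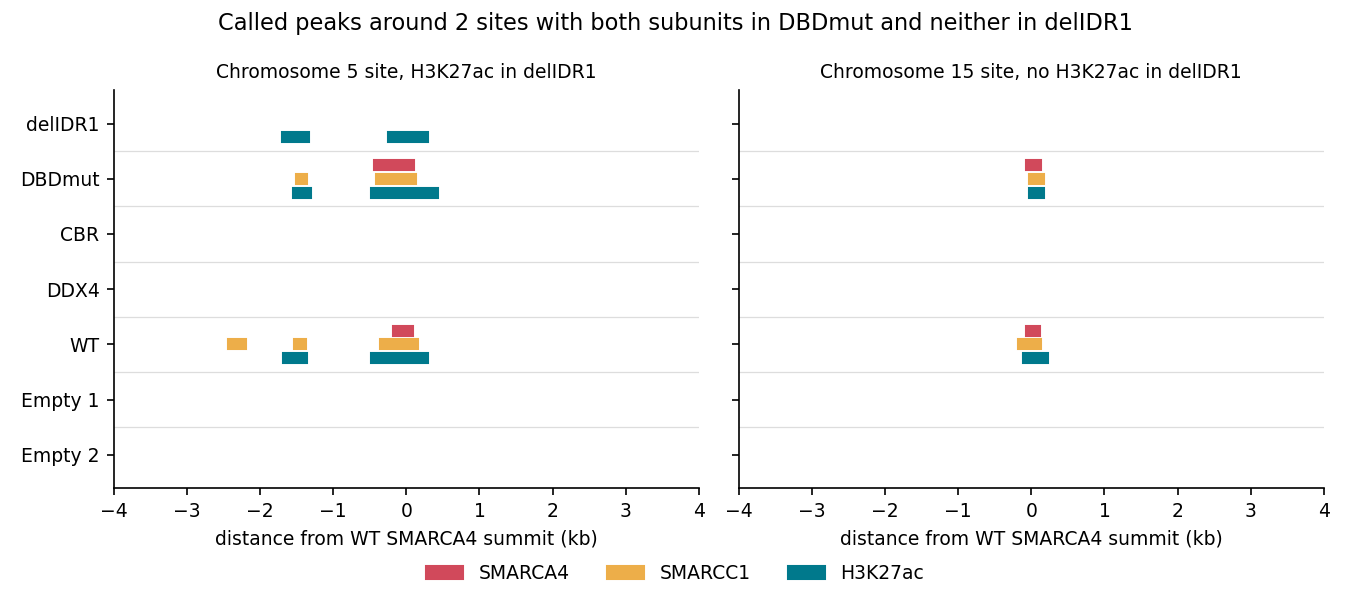
Called peaks within 4 kb of the WT SMARCA4 summit at 2 members, with constructs as rows (delIDR1 at the top, Empty replicates at the bottom), distance in kb on the x axis and 1 colour per antibody. In delIDR1 the chromosome 5 site has H3K27ac peaks and no subunit peak, and the chromosome 15 site has no peak of any antibody.

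The other members among the 10 strongest varied in the same ways. Of the 10, 7 had an H3K27ac peak in delIDR1 and 9 had one in DBDmut. The member chr2:210360768-210361024 had H3K27ac in neither mutant, although its WT H3K27ac peak was 12.1-fold, and it was the only one of the 10 with a DDX4 subunit peak, a SMARCC1 peak of 5.16-fold. The member chr3:129607596-129607877 had an H3K27ac peak in all 4 mutants, with pileups of 23 fragments in delIDR1, 44 in DBDmut, 18 in CBR and 14 in DDX4 against 72 in WT, and a CBR SMARCA4 peak of 6.70-fold. The member chr2:12647397-12647708 lacked H3K27ac in delIDR1 and had it at 8.19-fold in DBDmut and 14.2-fold in WT. The remaining 5, chr6:135230135-135230539, chr11:112163684-112164043, chr5:96116542-96116966, chr5:55802633-55802874 and chr5:6704530-6704882, had delIDR1 H3K27ac at 5.49-fold to 8.61-fold and DBDmut H3K27ac at 6.84-fold to 11.5-fold. Next in strength without H3K27ac in delIDR1 came chr4:41643087-41643223 and chr5:65065442-65065654, with DBDmut H3K27ac at 10.2-fold and 7.91-fold.

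In delIDR1, where neither subunit was called at the members, an H3K27ac peak met 336 of the 458, or 73.4% (69.1 to 77.2%). The same held for 66.7% of all 2823 new acetylated sites, which include the members, and for 64.2% of all WT SMARCA4 peaks, so the share lay near both backgrounds. In DBDmut, where both subunits were called, an H3K27ac peak met 425 members, or 92.8% (90.1 to 94.8%), against 75.2% of the new acetylated sites and 69.6% of all WT SMARCA4 peaks. The new acetylated sites are the like-for-like background here and in CBR and DDX4, because all WT SMARCA4 peaks also hold sites that the rule removed for an Empty peak or for lack of WT H3K27ac. Both mutants had the mark at 71.6% of members, against 59.2% of the new acetylated sites and 59.9% of all WT SMARCA4 peaks. DBDmut alone had it at 97 members or 21.2%, against 16.0% and 9.65%. For delIDR1 alone it was 8 members or 1.75%, against 7.51% and 4.29%, and for neither 25 members or 5.46%. Neither mutant had it at 17.3% of the new acetylated sites and 26.1% of all WT SMARCA4 peaks. The delIDR1 H3K27ac list held 30991 peaks at 3.59 fragments per kb and the DBDmut list 38153 at 4.65, and the part of depth in the gap between the mutants was not tested.

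In delIDR1 the share of members with H3K27ac lay between the other sets. It was 73.4% at the members, 96.7% at the sites with both subunits in both mutants and 42.7% at the sites with neither subunit in either mutant. The difference was -23.3 percentage points from the set of 332 sites (-27.8 to -18.7) and 30.7 points from the set of 946 sites (25.4 to 35.6). The 30.7 points are a difference between sites that all lacked both subunits in delIDR1. In DBDmut the members were close to the 332 sites, with a share of 92.8% against 97.0%, and far above the 48.1% of the 946 sites. The differences there were -4.19 points (-7.26 to -1.02) and 44.7 points (40.5 to 48.5). These intervals hold counting error alone and rest on 1 library per mutant, so they are no test of a difference.

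**Figure D2:**
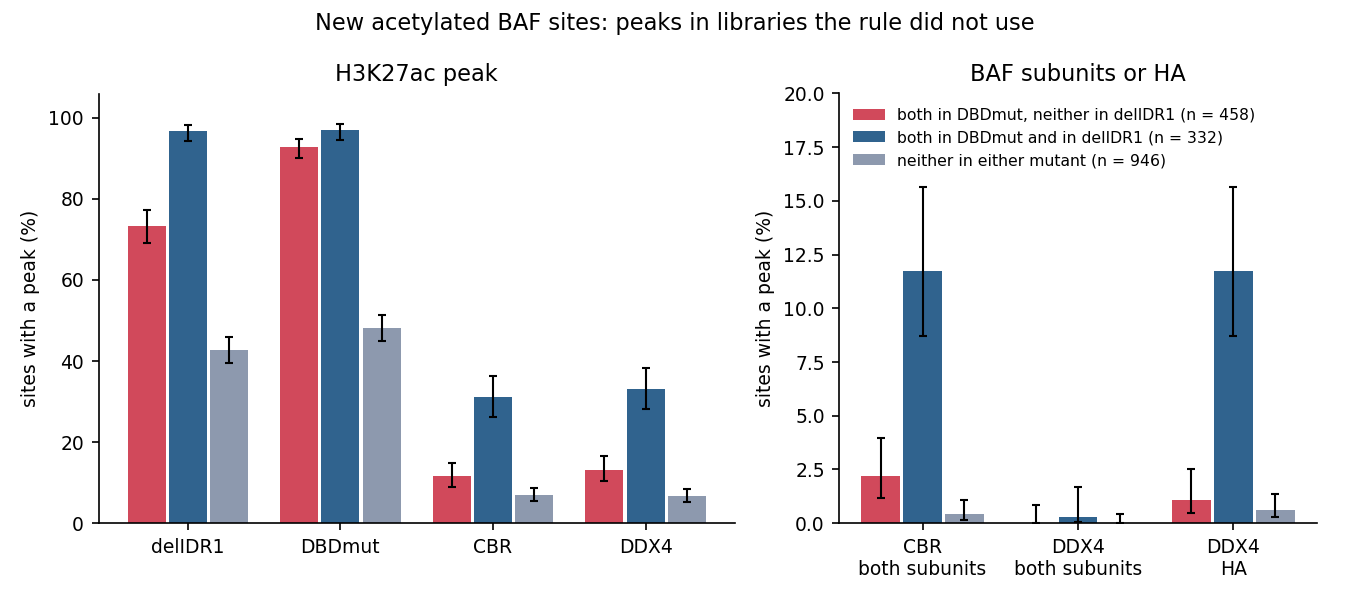
Share of sites with a peak in libraries the rule did not use, in percent, for the 458 members and the 2 comparison sets, with 95% Wilson intervals. The left panel shows H3K27ac in 4 mutants and the right panel, on a scale ending at 20%, both subunits in CBR and DDX4 and HA in DDX4. Members lie close to the 332 shared sites in DBDmut H3K27ac and between both sets in delIDR1 H3K27ac.

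Where acetylation was called in both mutants, its height at the members was lower in delIDR1. The median H3K27ac pileup was 20 fragments in delIDR1, over 336 members with a peak, and 34 in DBDmut, over 425. Site by site, at the 328 members with a peak in both lists and a recovered pileup, the median ratio of delIDR1 to DBDmut was 0.548, with an upper quartile of 0.723. At 315 of the sites with both subunits in both mutants the median ratio was 0.789, and at 287 of those with neither subunit in either mutant it was 0.867. The lowest backgrounds of these 2 libraries, 0.649 in delIDR1 and 0.814 in DBDmut, have a ratio of 0.797, and their fragments per kb a ratio of 0.770. The medians of the other sets were near these values and that of the members was below them. The ratio was below 0.797 at 79.6% of the members (74.9 to 83.6%), 50.5% of the 332-site set and 44.9% of the 946-site set. Sites without a peak in either list could not enter.

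Set against WT, the site sets were ordered differently in the mutants. The median ratio of H3K27ac pileups over WT was 0.545 in delIDR1 and 1 in DBDmut at the members. At the sites with both subunits in both mutants it was 0.774 in delIDR1 and 1.02 in DBDmut, and at the sites with neither subunit in either it was 0.542 and 0.645. The ratios exist only at sites with an H3K27ac peak in the mutant. In delIDR1 these were 336 of 458 members, 321 of the 332 sites and 404 of the 946 sites. In DBDmut they were 425, 322 and 455. Where a peak was called, the members were thus near the 946-site set in delIDR1 and near the 332-site set in DBDmut. Most of the 946 sites had no peak in either mutant's list and did not enter, so the sets are cut unlike. Both mutants are divided by the same WT library here, and the ratios are not scaled for depth. The depth estimates disagree on the ratio that depth alone would give. For delIDR1 over WT it is 1.005 by lowest background and 0.800 by fragments per kb, and for DBDmut over WT it is 1.26 and 1.04, so a ratio cannot be read as a change from WT and only the sets can be set against one another.

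**Figure D3:**
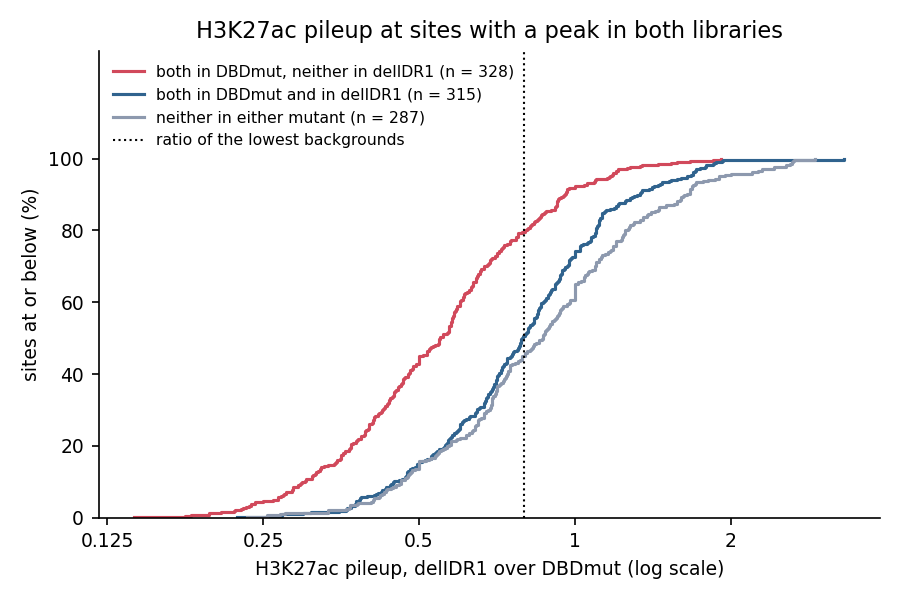
Cumulative share of sites, in percent, by the ratio of the H3K27ac pileup in delIDR1 to that in DBDmut on a log scale, at sites with a peak in both libraries. The dotted line is the ratio of the lowest backgrounds, 0.797. The curve of the 328 members lies to the left of both comparison sets, with medians of 0.548, 0.789 and 0.867.

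Strength of the WT acetylation moved with these values. When the new acetylated sites were put into 5 equal groups by the -log10 q of their WT H3K27ac peak, delIDR1 H3K27ac was found at 93.3% of 105 members in the strongest group and at 43.8% of 73 members in the weakest. In the same strongest group it was found at 99.3% of the sites with both subunits in both mutants and 74.7% of those with neither in either, and in the weakest at 72.2% and 20.1%. The members lay between the other sets in all 5 groups. With the comparison set weighted to the members' spread over these groups, a setting chosen after the values were seen, the difference from the 946 sites was 20.2 points in place of 30.7, and that from the 332 sites was -20.0 in place of -23.3. In the strongest group the median pileup ratio of delIDR1 to DBDmut was 0.509 at the members, 0.808 at the sites with both subunits in both mutants and 0.880 at those with neither in either.

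**Figure D4:**
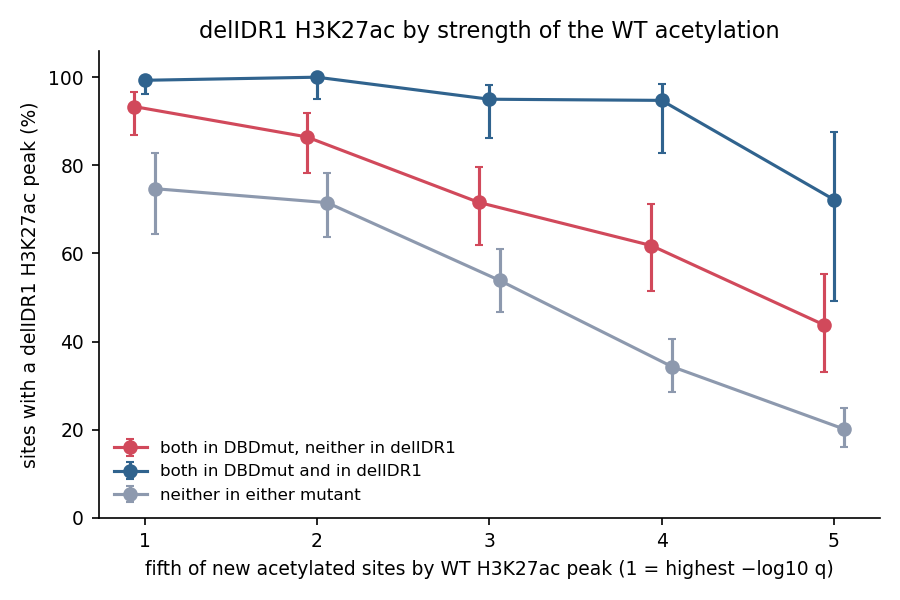
Share of sites with a delIDR1 H3K27ac peak, in percent, across 5 equal groups of the new acetylated sites by the -log10 q of the WT H3K27ac peak, strongest at the left, with 95% Wilson intervals. The members are at 93.3% in the strongest group and 43.8% in the weakest, and lie between the 2 comparison sets in every group.

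Among the members themselves, those with and without H3K27ac in delIDR1 differed in WT acetylation and, less widely, in WT SMARCC1. The WT H3K27ac peak had a median -log10 q of 25.1 and a median width of 575 bp at the 336 members with delIDR1 H3K27ac, and 12.9 and 349.5 bp at the 122 without. The WT SMARCA4 peak had a median fold of 7.54 and 7.48 at these members, and widths of 182 and 181 bp, with and without the mark. The WT SMARCC1 peak had a median -log10 q of 13.1 and a width of 316 bp with the mark, and 11.2 and 243.5 bp without. In 3 equal groups of members by WT H3K27ac -log10 q, delIDR1 H3K27ac was found at 89.5%, 76.5% and 53.9%. In 3 such groups by WT SMARCA4 the shares were 71.9%, 79.1% and 69.1%, with no steady order. By WT SMARCC1 they were 79.1%, 73.2% and 67.8%, and by DBDmut SMARCC1 79.7%, 75.2% and 65.1%. At the 122 members without the mark in delIDR1, DBDmut had it at 79.5% (71.5 to 85.7%), CBR at 1.64% and DDX4 at 3.28%. In numbers, DBDmut had it at 97 of these members and lacked it at 25. Among all new acetylated sites without the delIDR1 mark, DBDmut had it at 452 and lacked it at 489. Among all such WT SMARCA4 peaks the numbers were 1228 and 3323. CBR and DDX4 were not counted at such sites beyond the members.

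The members with the highest delIDR1 H3K27ac varied in occupancy, and by summed WT rank the top 5 stood at 225, 235, 76, 211 and 47 of the 458. The top was chr5:170948383-170948557, with a delIDR1 H3K27ac peak of 13.7-fold and a pileup of 78 fragments, against 11.9-fold and 62 in DBDmut and 16.3-fold and 107 in WT. Next came chr9:114774596-114774772, with H3K27ac at 14.2-fold in delIDR1, 11.4-fold in DBDmut and 12.2-fold in WT. The third was on chromosome 8, at 12.8-fold in delIDR1, followed by chr7:66594360-66594500 at 11.98-fold and chr7:47835252-47835408 at 8.26-fold. The first 4 also had H3K27ac in both CBR and DDX4, at 5.86-fold to 9.53-fold, and the last in DDX4 alone, at 3.78-fold. None of these 5 had a subunit peak in delIDR1, CBR or DDX4.

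Members lay a median of 47.2 kb from the nearest delIDR1 SMARCA4 or SMARCC1 peak, and the sites with neither subunit in either mutant a median of 48.3 kb. The median was 41.8 kb for members with delIDR1 H3K27ac and 69.2 kb for those without. At the sites with neither subunit in either mutant it was 40.5 kb with the mark and 57.4 kb without. Within 0.5 kb of a delIDR1 subunit peak lay 16 members, all with delIDR1 H3K27ac. Of the sites with neither subunit in either mutant, 19 lay that close, 13 of them with the mark. Within 5 kb lay 39 members. The share with H3K27ac was 89.7% (76.4 to 95.9%) of those 39 and 71.8% (67.3 to 75.9%) of the other 419. At the sites with neither subunit in either mutant it was 54.4% (42.7 to 65.7%) of 68 sites within 5 kb and 41.8% (38.6 to 45.1%) of the other 878. The order was thus the same in both sets. Of the 336 members with a delIDR1 H3K27ac peak, that peak also met a delIDR1 subunit peak beyond the member at 17, or 5.06% (3.18 to 7.95%). At the sites with neither subunit in either mutant it was 12 of 404, or 2.97% (1.71 to 5.12%). Of all 30991 delIDR1 H3K27ac peaks, 9036 or 29.2% met a delIDR1 subunit peak. That share is not like for like, as the rule lets no delIDR1 subunit peak touch a site of either set.

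**Figure D5:**
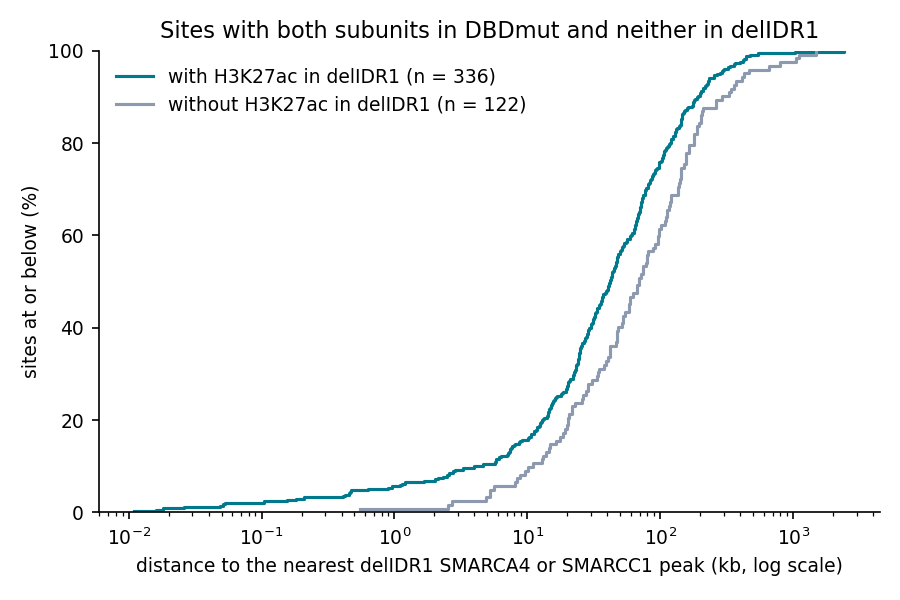
Cumulative share of members, in percent, by distance to the nearest delIDR1 SMARCA4 or SMARCC1 peak, in kb on a log scale, for the 336 members with H3K27ac in delIDR1 and the 122 without. Medians are 41.8 and 69.2 kb, and all 16 members within 0.5 kb carry the mark. At the sites with neither subunit in either mutant, not drawn, the medians are 40.5 and 57.4 kb, and 13 of 19 within 0.5 kb carry the mark.

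In CBR and DDX4 the members were close to the new acetylated sites as a whole. An H3K27ac peak met 53 members in CBR, or 11.6% (8.96 to 14.8%), and 60 in DDX4, or 13.1% (10.3 to 16.5%). Over all 2823 new acetylated sites the shares were 14.7% and 15.1%, and over all WT SMARCA4 peaks 49.4% and 51.8%. The shares were 31.0% in CBR and 33.1% in DDX4 at the sites with both subunits in both mutants, and 6.98% and 6.77% at those with neither in either. The members were higher than those 946 sites by 4.60 points in CBR (1.42 to 8.16) and 6.34 points in DDX4 (3.03 to 10.02). The commonest pattern over the mutants was H3K27ac in delIDR1 and DBDmut alone, at 248 members or 54.1%, followed by DBDmut alone at 92 members or 20.1%. All 4 mutants had the mark at 26 members. These patterns over 4 mutants were counted at the members only, so they are not read as a trait of the members. Whatever CBR and DDX4 held, delIDR1 and DBDmut both had the mark at 71.6% of members and 59.2% of the new acetylated sites. CBR and DDX4 both had the mark at 27 members, or 5.90%, against 7.12% of the new acetylated sites and 44.5% of all WT SMARCA4 peaks. Without Empty replicate 2, the rule gave 511 sites and the shares became 17.4% in CBR and 18.8% in DDX4. With lists of equal length they were 21.6% and 19.3%, over 88 sites.

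The complex itself was rarely called in those mutants, at the members as at the new acetylated sites in all. Both subunits had a CBR peak at 10 members, or 2.18% (1.19 to 3.97%), against 2.69% of the new acetylated sites, 31.1% of all WT SMARCA4 peaks, 11.7% of the sites with both subunits in both mutants and 0.423% of those with neither in either. With a -log10 q of at least 5 in every list the share was 0.563%. At least 1 subunit was called in CBR at 6.33% of members, against 9.49% of the new acetylated sites and 46.9% of all WT SMARCA4 peaks. Both subunits had a DDX4 peak at 0 of 458 members, which allows a share of up to 0.655%, against 0.106% of the new acetylated sites and 26.1% of all WT SMARCA4 peaks. A DDX4 SMARCA4 peak met 1 member, or 0.218%, against 0.496% of the new acetylated sites and 32.4% of all WT SMARCA4 peaks. A DDX4 SMARCC1 peak met 6, or 1.31%, against 2.16% and 35.5%. The HA tag of the hybrid protein had a peak at 5 members, or 1.09% (0.467 to 2.53%), where 2.73% of the new acetylated sites, 20.7% of all WT SMARCA4 peaks, 11.7% of the sites with both subunits in both mutants and 0.634% of those with neither in either had one.

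The strongest of the 10 members with both subunits in CBR lay on chromosome 19, at chr19:21239835-21240612. Its SMARCA4 peak had a pileup of 6 fragments in CBR, 14 in DBDmut and 28 in WT. Its H3K27ac peak was 7.80-fold in delIDR1, 10.4-fold in DBDmut, 5.91-fold in CBR and 11.8-fold in WT. The next 4 were chr19:53494904-53495160, chr3:128930750-128930957, chr2:72594982-72595250 and chr13:35753770-35753935, with CBR SMARCA4 pileups of 5 to 11 fragments and H3K27ac called in delIDR1 and DBDmut at each. At chr2:72594982-72595250 CBR exceeded DBDmut, with SMARCA4 at 10.1-fold and SMARCC1 at 11.6-fold in CBR against 5.21-fold and 8.68-fold in DBDmut, and H3K27ac was 12.7-fold in delIDR1, 7.16-fold in DBDmut, 10.97-fold in CBR and 7.90-fold in WT.

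The members were scattered through the genome. Joining members less than 12.5 kb apart gave 447 regions, of which 11 held 2 members and none held more. Chromosome 5 held 58 members, or 12.7%, against 9.25% of the new acetylated sites and 7.85% of all WT SMARCA4 peaks. Per 100 new acetylated sites there were 22.2 members on chromosome 5 (17.6 to 27.6), 22.95 on chromosome 13 (14.2 to 34.9), 22.9 on chromosome 15 (15.9 to 31.8), 10.2 on chromosome 17 (5.47 to 18.3) and 12.3 on chromosome 1 (8.92 to 16.7), with 16.2 over all chromosomes. Of all chromosomes, chromosome 1 alone had an interval that did not overlap that of chromosome 5. Genes, promoters and sequence at the sites were not analysed here.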

How the data were processed

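Each of the 22 CUT&Tag libraries had 1 deposited peak list in the narrowPeak layout, called per library. Per the submitters' processing notes the build was hg19 and bcl2fastq was used (version not named). Aligner, peak caller, control and handling of duplicates: not given in the sources used here. The authors deposited for each peak a fold enrichment, a -log10 p-value, a -log10 q-value and a score. The score was used only to check the layout, and the others were used to rank or filter peaks within a list. The fold was read as a ratio of summit pileup to local background, with 1 added to each. At backgrounds below 1 it therefore moves with the pileup, and so with depth.

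Titles gave the construct and antibody of each sample. Summit pileup and background were solved from fold and p-value, taking p as a Poisson tail, and were whole, to 0.001 on the -log10 p scale, in 99.7% of peaks or more in each list. Fragments per kb are the lowest background divided by the shortest peak, an estimate for comparing libraries of 1 antibody. The sorting of sites into sets, with peaks far apart, and the recovery of pileups were tested on simulated data. The simulated pileups did not reach as low as many at the members. For DBDmut SMARCA4 the lower quartile there was 7 fragments and the smallest 3, both below the simulated range. Sites with 0 peaks have a limit of 3 counts. Intervals cover counting error only.

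The members, the comparison sets and the tests were chosen with earlier results of these data known. Named sites are the 10 members of smallest summed rank over the WT lists of SMARCA4 and SMARCC1 (by -log10 q), the 5 strongest without delIDR1 H3K27ac, the 5 of highest delIDR1 H3K27ac -log10 q, up to 5 with both subunits in CBR or in DDX4, 3 of the opposite pattern, and 3 at each edge of the rule. The pileup ratios and the settings called later in the closing section were added after values were seen. Alternatives were a -log10 q of 5, overlap of 50%, summits within 250 bp, absence judged 500 bp wider, equal list lengths, either Empty replicate left out, chromosome X, scaled pileups and WT strength. No GRCh37 genome or annotation was used here, so genes, motifs and sequences were not analysed. The software was scipy 1.17.1, numpy 2.4.6, pandas 2.3.3 and matplotlib 3.10.9 under Python 3.11.15.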

Additional observations from a re-analysis of the deposited data

How the results depend on the processing

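Of 129 values recomputed under other settings, 103 stayed within a factor of 1.5 (counts) or the 95% interval (shares, differences, medians), and 26 moved. Only the differences could change sign, and none of them did. With lists of equal length the sites numbered 88, the H3K27ac shares were 78.4% in delIDR1, 98.9% in DBDmut, 21.6% in CBR and 19.3% in DDX4, both subunits were called in CBR at 1.14%, HA at 0%, the difference from sites with neither subunit was 16.9 points, and the median pileup ratio of delIDR1 to DBDmut was 0.430. With a -log10 q of at least 5 asked only of the peaks that must be present, 255 sites remained, with H3K27ac at 78.8% in delIDR1 and 96.5% in DBDmut, both subunits in CBR at 1.18% and a ratio of 0.497. With that threshold in every list, DBDmut H3K27ac was 96.6% and both subunits in CBR 0.563%. With summits within 250 bp, H3K27ac was 68.2% in delIDR1 and 89.5% in DBDmut. Above the median of WT strength there were 263 sites, with H3K27ac at 77.6% in delIDR1, 15.2% in CBR and 17.1% in DDX4. Weighting by WT H3K27ac, added later, gave a difference of 20.2 points from sites with neither subunit. Among the 122 sites without delIDR1 H3K27ac, also added later, DBDmut had it at 79.5%. Why these values moved was not tested, beyond the fewer peaks that the stricter settings keep. Leaving out either Empty replicate gave 489 to 511 sites, H3K27ac shares of 74.6% to 75.7% in delIDR1, 93.3% in DBDmut, 13.7% to 17.4% in CBR and 16.0% to 18.8% in DDX4, both subunits in CBR at 2.66% to 2.94% and in DDX4 at 0%, HA at 1.02% to 1.17%, differences of 29.5 to 31.5 and -21.7 to -21.3 points, and ratios of 0.548 to 0.571. No paired analysis was possible because replicate numbers exist for Empty alone. The planned motif and annotation search was not run, as no GRCh37 reference was used here. Median DBDmut pileups of 9 and 12 fragments limit what an absent peak can show.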

Other observations

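The 34 new acetylated sites with both subunits in delIDR1 and neither in DBDmut gave the opposite picture in H3K27ac. The mark was called in delIDR1 at all 34 (89.8 to 100%) and in DBDmut at 15, or 44.1% (28.9 to 60.5%). At those 15 the median ratio of the H3K27ac pileup in delIDR1 to that in DBDmut was 2.20, against 0.548 at the 458 sites with the reverse occupancy. Neither subunit was called in DDX4 at any of the 34, which allows a share of up to 8.82%, and both were called in CBR at 1. The strongest, chr10:64966781-64967081, had a delIDR1 SMARCA4 peak of 12.4-fold with a pileup of 17 fragments and SMARCC1 of 9.42-fold, and its H3K27ac was 11.8-fold in delIDR1, 4.54-fold in DBDmut and 10.8-fold in WT. The next was chr6:44013451-44013586, with delIDR1 SMARCA4 at 8.67-fold and no DBDmut H3K27ac peak, and then chr1:180546571-180546803, with delIDR1 SMARCA4 at 11.3-fold and H3K27ac at 7.31-fold in delIDR1 and 6.03-fold in DBDmut. With 34 sites and 1 library per mutant, these are values only.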
